A study of Mus musculus with 7 samples.

Results

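The genes described here are transcription factors and targets of the ATF4 and CHOP stress response, chosen by name as known members of the pathway. The list held 9 genes (Atf4, Atf5, Ddit3, Ddit4, Trib3, Asns, Chac1, Sesn2 and Slc7a11). Rows for 7 of them were found among the 16156 genes measured, and for Chac1 and Slc7a11, with no such row found, expression was not analysed here and only the promoter is described. The RNA came from mouse CD8 T cells that carry the OT-I receptor, which recognises an ovalbumin peptide. The cells either lacked ATP citrate lyase (ACLY KO, 3 libraries) or were wild type (WT, 4 libraries), and both kinds were put into C57Bl/6 hosts. Infection with Listeria monocytogenes expressing ovalbumin followed 1 day later, and the transferred cells were taken back 6 days after infection. The sources used here do not give the way in which ACLY was deleted, the age of the hosts or the number of animals behind each library. Each p-value therefore measures the spread between these libraries, which may in part be technical.

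Cells that run short of amino acids or haem, carry viral RNA, or accumulate misfolded protein in the endoplasmic reticulum (ER) phosphorylate the translation factor eIF2. General translation slows, while short reading frames ahead of the Atf4 coding sequence let the transcription factor ATF4 be made. ATF4 then raises enzymes of amino acid supply, and with the related factor CHOP (the product of Ddit3) it raises genes of redox control, feedback and cell death. Slc7a11 encodes a cystine carrier and Chac1 an enzyme that breaks down glutathione, both known targets. Activated T cells use this pathway to match amino acid uptake and synthesis to growth. Because ATF4 is set largely at translation, the level of its mRNA does not report the amount of the protein, and its targets are the usual readout in RNA data.

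ATF4 binds with a C/EBP partner at a composite element whose core was searched as TGATGNAA, or TTNCATCA on the other strand. RefSeq promoter windows of build GRCm38.p6, from 250 bases before to 50 bases after each gene's start, held the core in 1304 of 32851 windows (3.97%), which belong to 4.51% of 27025 genes. They held it for 4 of the 9 genes described here, Asns, Trib3, Chac1 and Slc7a11. The stretches with a match are shown because they are the letters these genes share, 5′ to 3′ on each gene's own strand, with the core in capitals. The Asns stretch is chr6:7693210-7693459 (minus strand), where the core begins 23 bases before the start. The Trib3 stretch is chr2:152344027-152344056 (minus strand), where it begins 15 bases into the transcript. The Chac1 stretch is chr2:119351022-119351081 (plus strand), where it begins 193 bases before the start. The Slc7a11 stretch is chr3:50443624-50443703 (minus strand), with cores that begin 66 and 47 bases before the start on opposite strands.
Asns: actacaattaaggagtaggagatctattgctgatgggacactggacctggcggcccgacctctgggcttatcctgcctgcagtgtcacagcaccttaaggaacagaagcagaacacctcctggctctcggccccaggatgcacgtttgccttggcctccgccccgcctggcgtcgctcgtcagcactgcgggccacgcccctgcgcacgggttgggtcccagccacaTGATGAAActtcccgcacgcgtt
Trib3: tagctcaggtTTACATCAgccgggcgggga
Chac1: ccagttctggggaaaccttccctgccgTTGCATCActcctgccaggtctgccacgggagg
Slc7a11: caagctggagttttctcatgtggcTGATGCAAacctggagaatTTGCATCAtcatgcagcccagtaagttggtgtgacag
A match is a run of letters and not a measured binding site. No match was found in the windows of Atf4, Atf5, Ddit3, Ddit4 and Sesn2, which says only that these letters are not in those windows.

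Gene counts summed to 37473484 to 39692359 in the KO libraries and to 45288353 to 75586011 in the WT libraries. Values are given as CPM, that is counts scaled to the library's TMM-adjusted size. Acly itself had 262, 62.0 and 209 CPM in KO replicates 1 to 3, against 393, 339, 414 and 276 CPM in WT replicates 1 to 4, so the highest KO value was just under the lowest WT value and no value was 0. Whether the counted reads lie outside the deleted part of the gene is not known. A pair of libraries stood apart. KO replicate 1 had 2368 CPM over 6 CD8 T cell markers, against 5987 to 7096 CPM in every other library, and it had the highest sum for every other cell type listed. WT replicate 4 had 4358 CPM over 16 cell cycle genes, against 444 to 1149 CPM elsewhere. The 10 B cell markers summed to 10059, 1149 and 641 CPM in KO replicates 1 to 3, against 237 to 679 CPM in WT. The 7 red cell markers summed to 47284, 6566 and 238 CPM in KO, against 1.48 to 475 CPM in WT, so KO replicate 2 also lay above every WT library. The 5 plasma cell markers measured summed to 860, 136 and 133 CPM in KO, against 164 to 170 CPM in WT. The 5 dendritic cell markers summed to 14896, 646 and 1300 CPM in KO, against 185 to 426 CPM in WT. Most of that KO sum was Cd74 (11072, 398 and 769 CPM) and H2-Ab1 (3665, 209 and 264 CPM). Itgax was at 118, 34.3 and 254 CPM in KO, against 151 to 401 CPM in WT. For Xcr1 and Zbtb46 the KO and WT libraries overlapped. The 3 neutrophil markers summed to 450, 29.7 and 1.30 CPM in KO, against 0.0552 to 0.543 CPM in WT. Of the B cell markers, Ms4a1, Pax5, Fcer2a and Blk each had no count in at least 1 WT library and had counts in every KO library. The same held for S100a8 among the neutrophil markers. The sum over 9 macrophage and monocyte markers was 1190, 64.5 and 965 CPM in KO, against 16.5 to 31.0 CPM in WT. The Trbv12-1 and Trbv12-2 segments, of the V beta family of the OT-I receptor, took 23.2% to 61.8% of Trbv counts in KO and 84.5% to 99.2% in WT. The part of these differences in the results below was not tested. Values with KO replicate 1 and WT replicate 4 left out are given, but they do not test it either. KO replicates 2 and 3, which stay in, had Trbv12 shares of 23.2% and 61.8%, below every WT library. Their macrophage and monocyte sums of 64.5 and 965 CPM were above every WT library.

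Over the 7 measured genes no difference between KO and WT passed the test, and in none did the KO libraries lie wholly above or below the WT libraries. edgeR's quasi-likelihood test, Benjamini-Hochberg adjusted over all 16156 genes, called 0 of the 7 higher and 0 lower, and it called 0.00% of all genes higher and 0.00% lower. At an unadjusted p under 0.05 it counted 0 of the 7 either way, against 11.0% of all genes higher and 7.89% lower. DESeq2 called 0 of the 7, against 6.81% of genes higher and 3.43% lower among those it tested. By limma voom 0 of the 7 were called, against 5.32% and 1.68%. KO libraries lay wholly above WT for 9.46% of all genes and wholly below for 9.03%. The log2 difference was above 0 for 3 of the 7 and below 0 for 4, with a median of -0.19, while over all genes the median lay at 0 to 2 decimals. In bulk RNA, fewer cells of a type and less RNA per cell cannot be told apart.

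Atf4 encodes the leucine zipper factor at the head of the response. Its gene is on chromosome 15 (80255184 to 80257541, plus strand, mm10). It had 116, 146 and 152 CPM in KO replicates 1 to 3, against 98.8, 121, 140 and 152 CPM in WT replicates 1 to 4. The groups overlapped almost wholly, with the lowest and the highest library both WT. KO libraries averaged 138 ± 19.2 CPM, and WT libraries 128 ± 23.3 CPM (SD, n = 3 and n = 4). On the log2 scale KO minus WT was 0.11 ± 0.18 (SE; edgeR adjusted p = 0.793), with a 95% interval of -0.31 to 0.53.

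Ddit3 encodes CHOP, a leucine zipper factor that ATF4 raises under lasting ER stress (chromosome 10, 127290774 to 127296288, plus strand). It had 20.5, 20.95 and 18.7 CPM in KO replicates 1 to 3, against 18.3, 18.7, 19.7 and 10.4 CPM in WT replicates 1 to 4. In 6 of the 7 libraries its level lay between 18.3 and 20.95 CPM, and WT replicate 4 alone was lower. The KO mean was 20.04 ± 1.18 CPM (SD, n = 3), with the smallest relative spread of the 7 genes in KO. The WT mean was 16.8 ± 4.29 CPM (SD, n = 4). The log2 difference was 0.26 ± 0.26 (SE; edgeR adjusted p = 0.655), and without WT replicate 4 it was 0.09. Exons of Ddit3 share bases with those of Mars1 and Gm4189 on the other strand, and the sources used here do not give the strand setting of the counting.

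Atf5 encodes a relative of ATF4 that is likewise controlled at translation and is known for the mitochondrial stress response (chromosome 7, 44812256 to 44816658, minus strand). It had 2.03, 1.19 and 0.0512 CPM in KO replicates 1 to 3, against 1.45, 1.82, 1.57 and 0.865 CPM in WT replicates 1 to 4. The value of KO replicate 3 rests on 2 counts, and the exact Poisson 95% interval of 0.0062 to 0.185 CPM, which covers counting error only, lies below every other library. On the log2 scale KO minus WT was -0.39 ± 0.93 (SE; edgeR adjusted p = 0.866). It was 0.17 without KO replicate 3 and -1.20 without KO replicate 1. Exons of Atf5 share bases with those of Il4i1 and Nup62 on the other strand, so its low counts are uncertain.

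**Figure D1:**
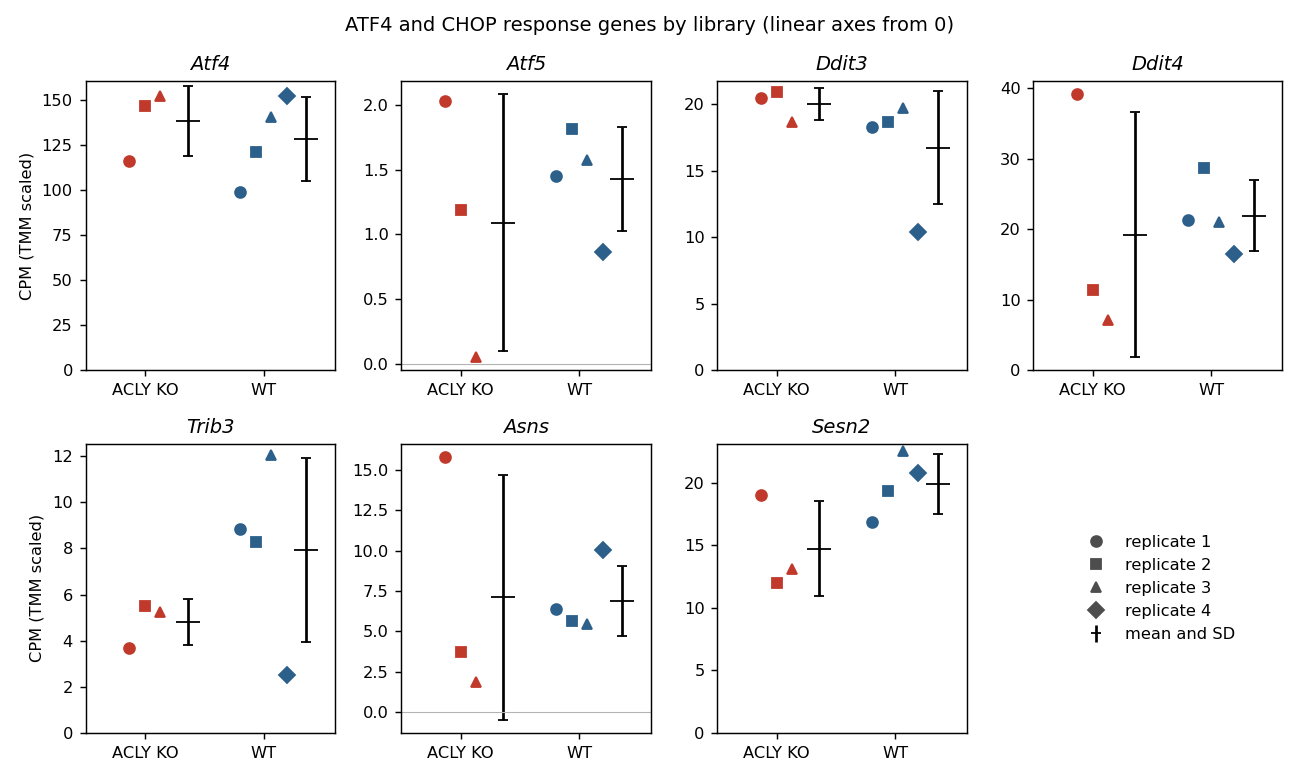
CPM of the 7 measured genes in each library, with ACLY KO (red) left of WT (blue) and linear vertical axes that include 0; points are libraries and the black marks are the mean and SD. Ddit4 reached 39.2 CPM and Asns 15.8 CPM in KO replicate 1, while the other KO libraries were below every WT library for both genes.

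The targets that restrain growth signalling and survival come next. Ddit4 encodes REDD1, an inhibitor of the growth kinase complex mTORC1 (chromosome 10, 59949669 to 59951834, minus strand). It had 39.2, 11.4 and 7.16 CPM in KO replicates 1 to 3, against 21.4, 28.7, 21.03 and 16.5 CPM in WT replicates 1 to 4. KO replicate 1 was above every WT library, and KO replicates 2 and 3 were below every WT library. KO libraries averaged 19.2 ± 17.4 CPM, and WT libraries 21.9 ± 5.04 CPM (SD, n = 3 and n = 4). The log2 difference was -0.19 ± 0.56 (SE; edgeR adjusted p = 0.894). Without KO replicate 1 it was -1.24 ± 0.33 (SE; edgeR adjusted p = 0.108).

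Sesn2 encodes sestrin 2, a leucine sensor that also holds mTORC1 back (chromosome 4, 132492032 to 132510501, minus strand). It had 19.0, 12.01 and 13.1 CPM in KO replicates 1 to 3, against 16.9, 19.3, 22.5 and 20.8 CPM in WT replicates 1 to 4. KO replicates 2 and 3 were below every WT library, and KO replicate 1 was among the WT libraries. KO libraries averaged 14.7 ± 3.77 CPM, and WT libraries 19.9 ± 2.38 CPM (SD, n = 3 and n = 4). On the log2 scale KO minus WT was -0.43 ± 0.24 (SE; edgeR adjusted p = 0.381) with a 95% interval of -0.99 to 0.12. This was the smallest adjusted p of the 7 genes. Without KO replicate 1 the difference was -0.66 (edgeR adjusted p = 0.166).

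Trib3 encodes a pseudokinase that binds ATF4 and dampens its activity as feedback (chromosome 2, 152337422 to 152344032, minus strand). It had 3.66, 5.49 and 5.25 CPM in KO replicates 1 to 3, against 8.84, 8.28, 12.1 and 2.51 CPM in WT replicates 1 to 4. The KO libraries lay below WT replicates 1 to 3 and above WT replicate 4. KO libraries averaged 4.80 ± 0.994 CPM, and WT libraries 7.92 ± 3.97 CPM (SD, n = 3 and n = 4). The log2 difference of -0.72 ± 0.52 (SE; edgeR adjusted p = 0.505) had a 95% interval of -1.92 to 0.48, and without WT replicate 4 it was -1.01.

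Asns encodes asparagine synthetase, the enzyme that makes asparagine from aspartate and glutamine (chromosome 6, 7675169 to 7693254, minus strand). Its promoter holds the core shown above. It had 15.8, 3.70 and 1.84 CPM in KO replicates 1 to 3, against 6.40, 5.63, 5.43 and 10.04 CPM in WT replicates 1 to 4. The KO libraries lay on both sides of WT, with an 8.57-fold range among themselves against 1.85-fold among the WT libraries. KO libraries averaged 7.11 ± 7.58 CPM, and WT libraries 6.88 ± 2.15 CPM (SD, n = 3 and n = 4). The log2 difference was 0.05 ± 0.69 (SE; edgeR adjusted p = 0.979). The sign turned without KO replicate 1, at -1.31 (edgeR adjusted p = 0.183). KO replicate 1, the highest for Asns, also had the highest sums of B cell, plasma cell, macrophage, neutrophil, dendritic cell and red cell markers. KO replicate 1 and WT replicate 4 had the highest cell cycle sums, 1149 and 4358 CPM, though Asns was higher in KO replicate 1. The part of these cells and of the cell cycle in the Asns level was not tested.

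**Figure D2:**
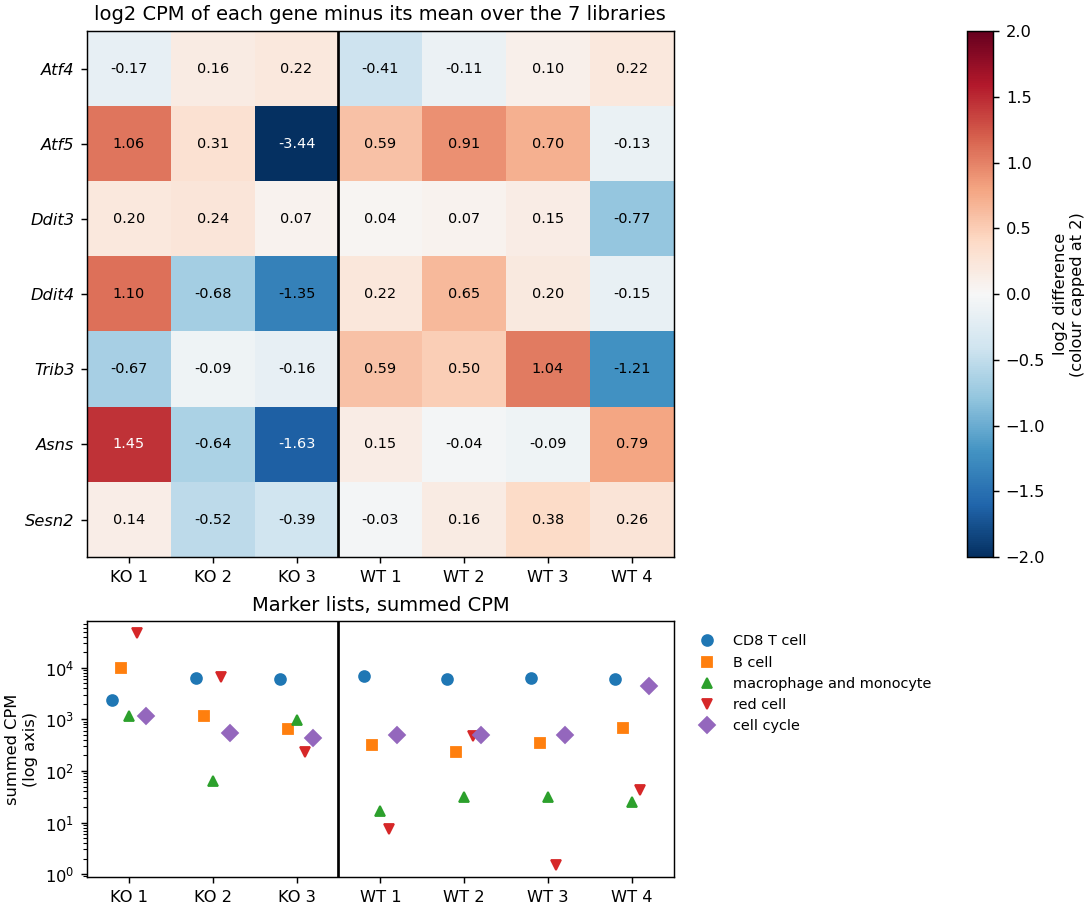
Upper panel, log2 CPM of each gene minus its mean over the 7 libraries (colour capped at 2), with the KO libraries left of the line and the WT libraries right of it; lower panel, summed CPM of 5 marker lists in the same libraries on a log axis. Ddit4, Asns and Atf5 ran from high in KO replicate 1 to low in KO replicate 3, and Ddit3 and Trib3 were lowest in WT replicate 4.

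The 7 genes did not share a profile over the libraries. Likeness was measured as the root mean square difference of log2 CPM, each gene centred on its own mean over 7 libraries. The nearest pairs were Atf4 with Sesn2 at 0.42, Atf4 with Ddit3 at 0.44 and Ddit4 with Asns at 0.48, and the farthest was Atf4 with Atf5 at 1.58. Atf4, Ddit3 and Sesn2 varied less over the 7 libraries than Ddit4 and Asns, so a small distance among them need not mean a shared pattern. Atf4 was highest in WT replicate 4, where Ddit3 was lowest. In KO replicates 2 and 3 Atf4 lay above its own mean (log2 0.16 and 0.22), while Sesn2 lay below its own (-0.52 and -0.39). Ddit4 and Asns were both highest in KO replicate 1 and both lowest in KO replicate 3. Atf5 shared these extremes. Among 9915 other genes with a symbol and a mean log2 CPM of at least 1, those nearest to Atf4 were Snapc2 (0.109), Rnf214 (0.112) and Sfswap (0.115). Those nearest to Ddit3 were Nisch (0.048), Ip6k1 (0.071) and Tcaim (0.075). Nisch had 276, 311 and 254 CPM in KO replicates 1 to 3, against 265, 254, 270 and 145 CPM in WT replicates 1 to 4, so it too was lowest in WT replicate 4.

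Levels between genes were compared as CPM per kilobase of annotated exon. Atf4 was the most abundant of the 7 in every library, at 49.3 to 64.5 CPM per kilobase in KO and 41.9 to 64.5 CPM per kilobase in WT. Ddit3 and Ddit4 followed. Ddit3 was at 10.9 to 12.2 CPM per kilobase in KO and 6.07 to 11.5 CPM per kilobase in WT. Ddit4 was at 4.08 to 22.3 CPM per kilobase in KO and 9.42 to 16.4 CPM per kilobase in WT, above Ddit3 in KO replicate 1 and in every WT library and below it in KO replicates 2 and 3. The ranges of Ddit3 and Ddit4 overlapped in both genotypes. By its mean Sesn2 stood next, at 3.46 to 5.48 CPM per kilobase in KO and 4.86 to 6.48 CPM per kilobase in WT. Its range overlapped that of Ddit4 in KO, that of Asns in KO and that of Trib3 in WT. Trib3 was at 1.72 to 2.59 CPM per kilobase in KO and 1.18 to 5.67 CPM per kilobase in WT. Asns was at 0.674 to 5.77 CPM per kilobase in KO and 1.99 to 3.67 CPM per kilobase in WT, and it overlapped Trib3 in both genotypes. Atf5 was the least abundant of the 7 within every library, at 0.0257 to 1.02 CPM per kilobase in KO and 0.434 to 0.912 CPM per kilobase in WT.

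Leaving out KO replicate 1 and WT replicate 4 was chosen after seeing the data, because of their marker sums given above. KO replicate 1 was the highest library for Ddit4, Asns and Atf5, and WT replicate 4 the lowest for Trib3. Such values had kept the groups from separating, so the counts below follow in part from the choice. Over the 5 libraries left, 5 of the 7 genes were lower in both KO libraries than in every WT library, where 26.3% of all genes were, and 1 was higher in both, where 21.3% were. The 5 lower genes were Atf5, Ddit4, Trib3, Asns and Sesn2, and the higher one was Atf4. edgeR called 1 of the 7 lower and 0 higher, where it called 4.20% of all genes lower and 5.43% higher. That gene was Ddit4, at 11.4 and 7.16 CPM in KO replicates 2 and 3 against 21.4, 28.7 and 21.03 CPM in WT replicates 1 to 3 (log2 -1.34 ± 0.29, SE; edgeR adjusted p = 0.0444).

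No other gene of the 7 passed the threshold in these 5 libraries. On the log2 scale KO minus WT was -0.84 ± 0.27 (SE) for Trib3, -0.62 ± 0.20 (SE) for Sesn2 and -1.05 ± 0.39 (SE) for Asns, with edgeR adjusted p of 0.111, 0.109 and 0.146. Counted at an unadjusted p under 0.05, 4 of the 7 were lower and 0 higher, where 14.7% of all genes tested were lower and 14.7% higher. Atf4 was at 146 and 152 CPM in KO against 98.8, 121 and 140 CPM in WT (log2 0.33 ± 0.16, SE; edgeR adjusted p = 0.239). Ddit3 was at 20.95 and 18.7 CPM in KO against 18.3, 18.7 and 19.7 CPM in WT (log2 0.09 ± 0.15, SE). Trbv12 shares in these libraries were still 23.2% and 61.8% in KO against 99.0% to 99.2% in WT.

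**Figure D3:**
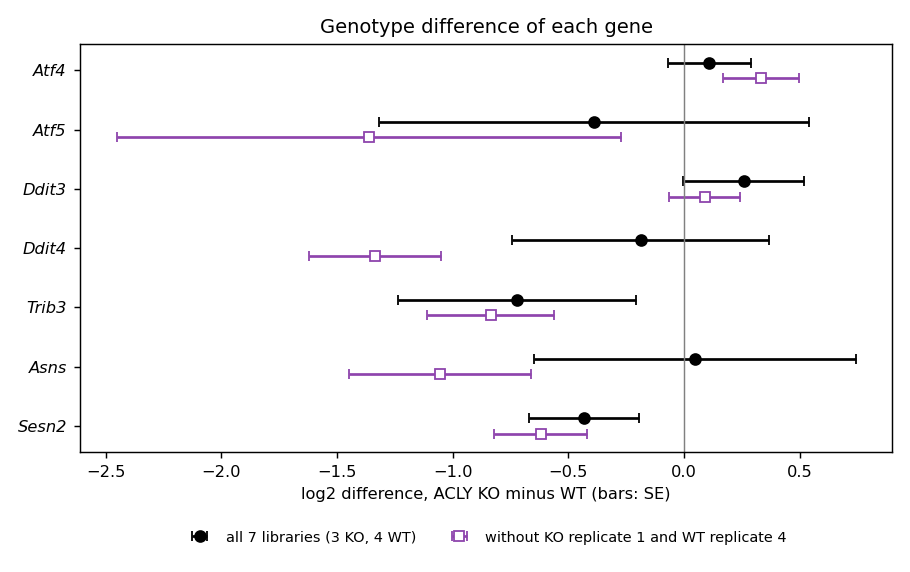
Log2 difference of each gene, ACLY KO minus WT, with bars of 1 SE, for all 7 libraries (black circles) and without KO replicate 1 and WT replicate 4 (open squares). For Ddit4 the difference was -0.19 with all libraries and -1.34 without the pair, and for Asns it was 0.05 and -1.05.

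Upstream of ATF4, the eIF2 kinases, the eIF2B exchange factor and the eIF2 phosphatase were measured in full, 14 of 14 genes, and edgeR called 0 higher and 0 lower. Log2 differences were above 0 for 4 and below 0 for 10, with a median of -0.13. At an unadjusted p under 0.05, 1 was higher and 0 lower, against 11.0% and 7.89% of all genes. For this list and those that follow, a DESeq2 adjusted p is given beside the named genes that DESeq2 called. Over all genes it tested DESeq2 called 6.81% higher and 3.43% lower. Fits with libraries left out are likewise given in these paragraphs only where edgeR called the gene, so fits without a call are not shown. Without KO replicate 1 and WT replicate 4 edgeR called 5.43% of all genes higher and 4.20% lower. Such calls say little about a list as a whole, because its genes were named in part for the smallest p. Eif2ak4 encodes GCN2, the kinase that senses uncharged tRNA, and it was at 30.9, 28.8 and 24.0 CPM in KO against 18.2, 17.2, 18.8 and 10.7 CPM in WT. Each KO library was above each WT library (log2 0.78 ± 0.24, SE; edgeR adjusted p = 0.153; DESeq2 adjusted p = 0.0239). Ppp1r15a encodes GADD34, the stress-induced subunit of the eIF2 phosphatase, and it was at 154, 396 and 314 CPM in KO against 117, 119, 281 and 128 CPM in WT. KO replicates 2 and 3 were above every WT library, but KO replicate 1 was below WT replicate 3 (log2 0.84 ± 0.42, SE; edgeR adjusted p = 0.337). Eif2b1, a subunit of eIF2B, averaged 51.5 ± 6.61 CPM in KO, against 63.8 ± 6.91 CPM in WT (SD, n = 3 and n = 4). Eif2s1, the subunit of eIF2 that is phosphorylated, averaged 160 ± 19.2 CPM in KO, against 189 ± 27.3 CPM in WT.

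Leucine zipper partners of ATF4 and CHOP gave 8 measured genes of 9, with 6 above 0 and 2 below, a median log2 difference of 0.44 and 0 called by edgeR. At an unadjusted p under 0.05, 2 were higher and 1 lower, against 11.0% and 7.89% of all genes. Cebpb, a C/EBP factor that pairs with both, was at 39.0, 40.9 and 57.6 CPM in KO against 25.4, 22.8, 39.5 and 25.0 CPM in WT (log2 0.70 ± 0.25, SE; edgeR adjusted p = 0.190). KO replicate 1 lay just below WT replicate 3, and the other KO values were above every WT value. Cebpd was at 10.4, 1.09 and 5.37 CPM in KO against 0.676 to 1.25 CPM in WT, so that KO replicate 2 lay within WT (edgeR adjusted p = 0.123; DESeq2 adjusted p = 0.00691). Leaving out KO replicate 2, the library within WT, removes the value most against the difference and so favours a call. Without it edgeR called Cebpd at a log2 difference of 3.07 (edgeR adjusted p = 0.0497). That fit called 118 genes higher over the whole table. The libraries high in Cebpd, KO replicates 1 and 3, were those with macrophage and monocyte sums of 1190 and 965 CPM, and the part of those cells was not tested. Jdp2, a repressive partner, was at 7.46, 3.54 and 2.97 CPM in KO against 9.28, 8.84, 10.4 and 22.5 CPM in WT, each KO library below each WT library (edgeR adjusted p = 0.184; DESeq2 adjusted p = 0.0393). Without KO replicate 1 and WT replicate 4 edgeR called it (edgeR adjusted p = 0.0305). Nfe2l2, which encodes NRF2, averaged 104.5 ± 4.24 CPM in KO, against 92.4 ± 11.3 CPM in WT (SD, n = 3 and n = 4). Batf, a factor of effector T cells, averaged 64.7 ± 14.5 CPM in KO, against 91.3 ± 26.4 CPM in WT.

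Other genes of the amino acid response were split in direction. Of 24 measured genes of 30, 13 were above 0 and 11 below, with a median log2 difference of 0.07. edgeR called 0 of them, with 3 higher and 2 lower at an unadjusted p under 0.05, against 11.0% and 7.89% of all genes. Psph, the last enzyme of serine synthesis, was at 36.3, 43.0 and 40.9 CPM in KO against 64.6, 64.8, 57.1 and 64.3 CPM in WT (log2 -0.65 ± 0.13, SE; edgeR adjusted p = 0.0710; DESeq2 adjusted p = 0.000323). Each KO library was below each WT library, and its exons share bases with Cct6a on the other strand. Pycr1, an enzyme of proline synthesis, was at 3.02, 1.14 and 1.30 CPM in KO against 0.0138, 0.0449, 0.154 and 0 CPM in WT, with each KO library higher (edgeR adjusted p = 0.0841; DESeq2 adjusted p = 0.000423). With KO replicate 1 and WT replicate 4 left out edgeR called Psph and Pycr1, at adjusted p of 0.0496 and 0.0490. In WT replicates 1, 2 and 4 Pycr1 lay below the level of 3 counts, which is 0.0397, 0.0662 and 0.0506 CPM before TMM scaling. WT replicate 4 had no Pycr1 count. Atg5, a gene of autophagy, averaged 73.0 ± 7.13 CPM in KO, against 108 ± 11.4 CPM in WT (SD, n = 3 and n = 4), with an edgeR adjusted p of 0.0942 and a DESeq2 adjusted p of 0.0119. The most abundant genes of the list were Slc1a5, which encodes a glutamine carrier, and Sqstm1, which encodes an autophagy receptor. Slc1a5 averaged 591 ± 87.0 CPM in KO, against 629 ± 122 CPM in WT (edgeR adjusted p = 0.853). Sqstm1 averaged 321 ± 38.7 CPM in KO, against 305 ± 36.5 CPM in WT (edgeR adjusted p = 0.831).

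All 12 tRNA synthetase genes listed were measured, with 4 above 0, 8 below, a median log2 difference of -0.09 and 0 called by edgeR. At an unadjusted p under 0.05, 1 was higher and 0 lower, against 11.0% and 7.89% of all genes. Cars, for cysteine, was at 56.1, 54.8 and 50.7 CPM in KO against 32.3, 29.2, 35.3 and 39.6 CPM in WT, each KO library above each WT library (log2 0.66 ± 0.15, SE; edgeR adjusted p = 0.0844; DESeq2 adjusted p = 0.00113). Its edgeR adjusted p without KO replicate 1 and WT replicate 4 was 0.0321. Tars, for threonine, averaged 108 ± 26.5 CPM in KO, against 145 ± 12.6 CPM in WT (SD, n = 3 and n = 4). Gars, for glycine, averaged 161 ± 24.1 CPM in KO, against 230 ± 79.5 CPM in WT. Sars, for serine, averaged 179 ± 23.2 CPM in KO, against 203 ± 20.9 CPM in WT.

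Targets of the other arms of the unfolded protein response, driven by ATF6 and XBP1, were split evenly. Of 21 genes, all measured, 10 were above 0 and 11 below, with a median log2 difference of -0.03 and 0 called by edgeR. At an unadjusted p under 0.05, 1 was higher and 1 lower, against 11.0% and 7.89% of all genes. Hspa5 encodes the ER chaperone BiP, the usual marker of ER stress, and it was at 705, 685 and 745 CPM in KO against 579, 630, 734 and 818 CPM in WT (log2 0.04 ± 0.16, SE; edgeR adjusted p = 0.914). Calr, another ER chaperone, averaged 482 ± 84.7 CPM in KO, against 444 ± 113 CPM in WT (SD, n = 3 and n = 4). Hyou1, an ER chaperone of the HSP70 family, was at 24.3, 28.2 and 31.2 CPM in KO against 18.6, 18.3, 20.1 and 22.5 CPM in WT, each KO library above each WT library (edgeR adjusted p = 0.202, and 0.0481 without KO replicate 1 and WT replicate 4). Sec61b, a subunit of the ER translocon, averaged 59.1 ± 7.20 CPM in KO, against 85.2 ± 18.2 CPM in WT. Syvn1, an ER ubiquitin ligase, was at 219 CPM in KO replicate 1, 56.1 and 54.1 CPM in KO replicates 2 and 3, and 52.6 to 64.5 CPM in WT. KO replicate 1 had the highest sum for every cell type listed other than CD8 T cells, among them plasma cells at 860 CPM. Most of that plasma cell sum was Jchain (530 CPM) and Xbp1 (241 CPM). Irf4 and Derl3 were also highest in KO replicate 1. Prdm1 was at 26.3 CPM there, below every WT library (44.9 to 55.0 CPM). Xbp1 is in both the plasma cell list and this one. The part of those cells in Syvn1 was not tested.

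Of the CHOP targets listed, 6 of 7 were measured, 4 above 0 and 2 below, with a median log2 difference of 0.16 and 0 called by edgeR. At an unadjusted p under 0.05, 0 were higher and 1 lower, against 11.0% and 7.89% of all genes. Ero1a, an oxidase of the ER, was at 43.9, 31.1 and 27.7 CPM in KO against 61.7, 58.0, 58.8 and 53.1 CPM in WT, each KO library below each WT library (log2 -0.76 ± 0.18, SE; edgeR adjusted p = 0.0983; DESeq2 adjusted p = 0.00578). Without KO replicate 1, the highest KO library for Ero1a, edgeR's adjusted p was 0.0483, in a fit that called 48 genes lower over the whole table. That library went most against the difference, so leaving it out favours a call. Without that library and WT replicate 4 the edgeR adjusted p of Ero1a was 0.0195. Bcl2l11, which encodes the death protein BIM, averaged 68.3 ± 15.0 CPM in KO, against 55.2 ± 14.1 CPM in WT (SD, n = 3 and n = 4). Tnfrsf10b, a death receptor, was at 1.07, 3.79 and 0.716 CPM in KO against 0.897 to 1.09 CPM in WT.

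**Figure D4:**
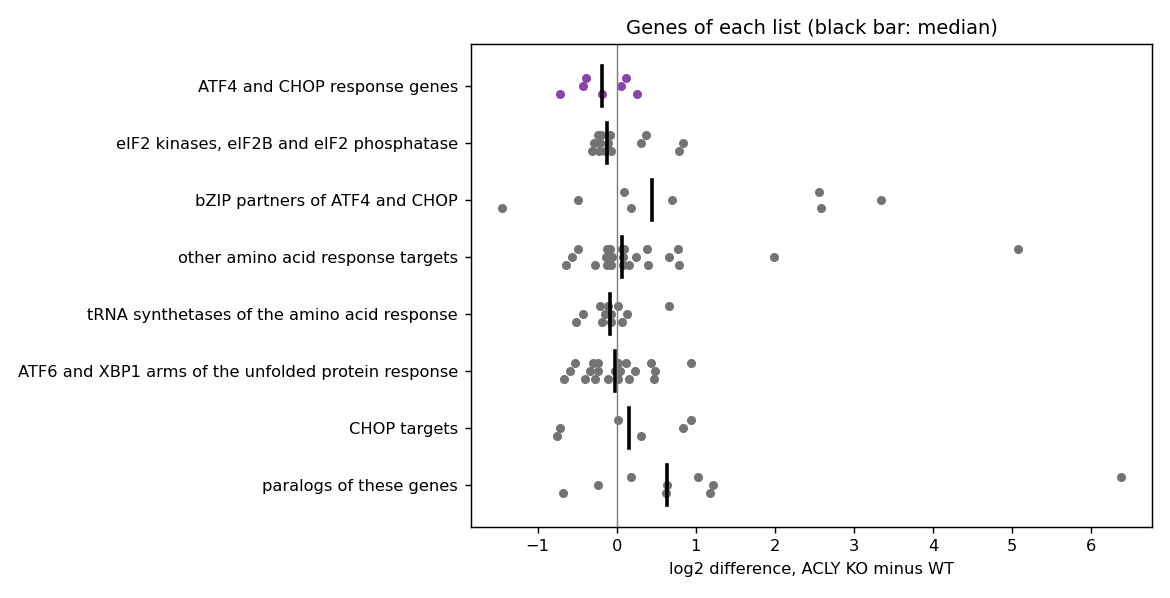
Log2 difference, ACLY KO minus WT, of each measured gene in the 8 lists, with 1 point per gene and a black bar at the median. The 7 ATF4 and CHOP response genes (purple) ran from -0.72 for Trib3 to 0.26 for Ddit3, and the median of each list stood between -0.19 and 0.64.

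Relatives of these genes in the same families were listed as well. Of 9 measured relatives of 10 listed, 7 were above 0 and 2 below, with a median log2 difference of 0.64. edgeR called 0 of them, with 5 higher and 0 lower at an unadjusted p under 0.05, against 11.0% and 7.89% of all genes. Sesn1, the sestrin gene that p53 and FOXO factors control, was at 171, 134 and 114 CPM in KO against 92.9, 97.6, 82.3 and 85.7 CPM in WT (log2 0.64 ± 0.16, SE; edgeR adjusted p = 0.102; DESeq2 adjusted p = 0.00647). Trib2, a pseudokinase gene expressed in lymphocytes, was at 167, 181 and 106 CPM in KO against 62.3, 52.9, 74.9 and 70.2 CPM in WT (log2 1.22 ± 0.21, SE; edgeR adjusted p = 0.0651; DESeq2 adjusted p = 2.11e-05). Atf7, another leucine zipper gene, was at 24.2, 28.6 and 43.1 CPM in KO against 17.4, 15.6, 17.7 and 12.3 CPM in WT (edgeR adjusted p = 0.101; DESeq2 adjusted p = 0.00371). Each KO library lay above each WT library for 4 of the 9 relatives (Sesn1, Trib2, Atf7 and Slc7a8), against 9.46% of all genes. Of these, Trib2, Atf7 and Slc7a8 were named for the smallest p in the list. The relatives Sesn3 and Trib1 had no such separation, and neither had Sesn2 and Trib3. The difference between relatives was not tested. Trib2 was called without KO replicate 3, its lowest KO library (edgeR adjusted p = 0.0425), in a fit that called 142 genes higher over the whole table. Here too the library left out went most against the difference, which favours a call. Slc7a8, an amino acid carrier gene, was at 5.18, 0.745 and 12.1 CPM in KO against at most 0.173 CPM in WT (edgeR adjusted p = 0.0757; DESeq2 adjusted p = 1.82e-06). In WT replicates 2 and 4 Slc7a8 lay below the level of 3 counts. With KO replicate 1 and WT replicate 4 left out edgeR called Trib2, Atf7 and Slc7a8, at adjusted p of 0.0429, 0.0367 and 0.0470. KO replicate 2, the lowest KO library for Slc7a8, also had the lowest macrophage and monocyte sum of the KO libraries, and the part of those cells was not tested. Among the genes named from the lists, exons of Ppp1r15a, Cebpd, Cebpb, Jdp2, Psph, Sqstm1 and Syvn1 share bases with a gene on the other strand. Their counts are uncertain to differing degrees. The shared part was 12 of 2937 exon bases for Ppp1r15a and 91 of 4859 for Syvn1, but 562 of 3746 for Cebpd and 312 of 1504 for Cebpb.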

How the data were processed

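RNA sequencing of total RNA covered 3 ACLY KO and 4 WT libraries. The submitters' processing notes name Trim Galore 0.6.0, STAR 2.7.8, DESeq2 and build mm10. The sources used here give no counting tool, annotation, strand setting or filter. The authors deposited raw counts of 16156 genes and a table of log2 CPM, which equalled a recomputation with edgeR (TMM, prior count 2) within 4.99e-09 and supplied symbols. Coordinates, exons and exon overlaps came from GENCODE M21 (mm10) and promoter sequences from RefSeq.

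Genotypes were compared with edgeR 4.0.16 in R 4.3.3 (quasi-likelihood fit, genotype only, Benjamini-Hochberg over all genes, threshold 0.05); filterByExpr removed 0 genes. Standard errors and 95% intervals were derived from the same fit. Replicate libraries differed beyond sampling noise. The members, lists, alternatives and rule for named genes were chosen with earlier results of these data known. The rule named all members, in each list the 3 genes with the smallest unadjusted p and the 2 with the highest mean CPM, and the 3 genes nearest in profile to Atf4 and to Ddit3. Alternatives were other scalings and filters, DESeq2 1.42.0, limma 3.58.1 voom with quality weights, edgeR's bias-adjusted fit, a replicate block and each library left out. The scripts were tested on simulated data. A count of 3 equals 0.0397 to 0.0801 CPM before TMM scaling.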

Additional observations from a re-analysis of the deposited data

Results flagged for a closer look

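Among the 43 genes examined, 9 had a WT library that stood apart from the other 3 by Dixon's test on log2 CPM, a test that by chance marks about 1 in 20 groups. In 7 of the 9 that library was WT replicate 4, but 3 of these genes were chosen for their likeness to Ddit3, which fixes their low value there. Among the other 40 genes 6 stood apart in this way, 4 of them in WT replicate 4. That library also had the highest cell cycle sum, whose part in these values was not tested. WT replicate 4 was low for Ddit3 (10.4 CPM, with the other WT libraries at 18.3 to 19.7), Eif2ak4 (10.7 CPM, against 17.2 to 18.8), Nfe2l2 (75.6 CPM, against 96.1 to 100.4) and for the 3 genes chosen for their likeness to Ddit3, Nisch (145 CPM), Ip6k1 (116 CPM) and Tcaim (9.09 CPM). It was high for Eif2b1 (74.1 CPM, against 59.8 to 60.8). WT replicate 3 was high for Ppp1r15a (281 CPM, against 117 to 128) and low for Psph (57.1 CPM, against 64.3 to 64.8).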

How the results depend on the processing

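Under the replicate block, either other scaling, no filter on counts, or a filter at a mean of 10, edgeR called 0 genes either way over the whole table. DESeq2 called 1032 higher and 520 lower, limma voom 860 and 272, and the bias-adjusted fit 497 and 77. With 1 library left out edgeR called 0 to 142 higher and 0 to 48 lower, and calls appeared without any 1 of the KO libraries or without WT replicate 4. Without both KO replicate 1 and WT replicate 4 it called 864 higher and 668 lower, and among the members 0 higher and 1 lower (Ddit4). In each other setting 0 members were called. Atf4 and Ddit3 kept a difference above 0, and Sesn2 and Trib3 one below 0, in all 16 alternatives, with ranges of 0.00 to 0.38 for Atf4, 0.09 to 0.35 for Ddit3, -0.66 to -0.31 for Sesn2 and -1.02 to -0.45 for Trib3. Asns turned to -0.51 with voom, to -0.30 with the replicate block and to -1.05 without both libraries, and ranged from -1.31 to 0.50 with 1 library left out. With 1 library left out Ddit4 ranged from -1.24 to 0.21, Atf5 from -1.20 to 0.17, Sqstm1 from -0.0151 to 0.16, Syvn1 from -0.0515 to 1.27, Hspa5 from -0.0321 to 0.14, Calr from -0.0331 to 0.29 and Tnfrsf10b from -0.13 to 1.32. Without both libraries Sars was at 0.0127, Syvn1 at -0.0690 and Ip6k1 at -0.0243. The cause of these turns was not tested. Replicate numbers did not pair the libraries (correlations of same-numbered deviations -0.108, -0.0513 and 0.137), and only KO replicate 3 correlated best with its own number.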
